A study of Homo sapiens with 12 samples.

Results

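The genes described here are 9 that read, carry or restrain signalling by transforming growth factor beta (TGF-beta) and its relatives: the receptor genes TGFBR1 and TGFBR2, the signal transducer gene SMAD3, the inhibitor genes SMAD6, SMAD7, SKIL and PMEPA1, and the early target genes ID1 and ID3. They were chosen by name, with the input expression values of these libraries already known, so their differences between the groups are given as a description without a test. All 9 were found among the 29696 genes of the deposited expression table, and all were among the 12985 genes that reached a mean of 0.5 FPKM (fragments scaled by the length of the transcript and by the size of the library) over the 6 input libraries. The cells were A375, an established human melanoma line, infected with a lentivirus carrying a short hairpin against ALKBH5 (shALKBH5) or a control hairpin (shCtrl, which the study calls Scramble). The labels give the genotypes as ALKBH5 knockdown and wild type and list no treatment, so no TGF-beta was added in either group as far as they state. By the methods of the study, its cell lines were grown in medium with fetal bovine serum. Each group had 3 input libraries, from which the expression values come, and 3 libraries of RNA precipitated with an antibody against N6-methyladenosine (m6A), which the authors turned into 1 list of peaks per group. Which hairpin the sequenced cells carried is not given in the sources used here, and the labels do not say whether the replicates were separate cultures. The study says of its experiments in general that they were repeated independently. Where the libraries of a group share a culture, the tests measure only the spread between these libraries.

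TGF-beta ligands bring a type II receptor, encoded by TGFBR2, together with a type I receptor, encoded by TGFBR1, which then phosphorylates SMAD2 and SMAD3. These bind SMAD4, enter the nucleus and switch target genes on or off, and among the targets are genes whose products damp the same pathway. SMAD7 blocks the type I receptor, SMAD6 acts mainly on signalling by bone morphogenetic proteins (BMPs), SKIL (also called SnoN) represses SMAD-dependent transcription, and PMEPA1 is a membrane protein that keeps SMAD2 and SMAD3 from being activated. ID1 and ID3 encode helix-loop-helix proteins that cannot bind DNA and that are classical targets of BMP signalling. ALKBH5, the targeted gene, encodes a demethylase that removes m6A from RNA. In melanoma, TGF-beta signalling has been linked with invasion and with resistance to inhibitors of the BRAF kinase.

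The targeted gene was examined first. ALKBH5 was at 3.39, 3.92 and 3.12 FPKM in the shALKBH5 libraries and at 19.3, 17.8 and 17.6 FPKM in the shCtrl libraries, with a log2 fold change (log2FC) of -2.36. All 3 knockdown libraries lay below all 3 controls. Summed FPKM ranged from 221946 to 223231 over the knockdown libraries and from 212760 to 218966 over the controls. Read counts were not used here and low values gave no steps, so how deeply each library was sequenced is unknown. Of the melanocyte lineage markers, SOX10 was at 179 to 192 FPKM in all 6 libraries, whereas PMEL (0.478 to 0.690 in shALKBH5 against 0.166 to 0.285 FPKM in shCtrl cells), TYR and DCT stayed below 1 FPKM. Of 5 tested genes of the list 3 rose, 1 fell and 1 did not pass. MITF was at 1.26 against 0.777 FPKM (means, overlapping groups, adjusted p = 0.0475), and S100A1 at 4.07 to 4.82 against 1.67 to 2.06 FPKM. S100B was at 79.0 to 85.1 FPKM in shALKBH5 cells against 31.5 to 34.2 FPKM in shCtrl cells, and PAX3 was the gene that fell, at 0.508 to 0.643 against 1.08 to 1.24 FPKM. The summed level of the 8 melanocyte markers in the table was 268 to 271 FPKM in shALKBH5 cells and 217 to 227 FPKM in shCtrl cells. The sums of the other marker lists were 10.7 to 11.5 against 8.90 to 9.53 FPKM for keratinocytes (2 of 4 genes in the table, with KRT10 higher and KRT14 lower, the latter at 0.369 against 0.961 FPKM), 3.18 to 4.31 against 2.20 to 2.35 FPKM for fibroblasts (5 of 5 genes, with LUM higher at 2.61 against 1.16 FPKM and PDGFRA and COL1A2 lower, both below 0.5 FPKM) and below 0.4 FPKM in every library for endothelial (3 of 3 genes) and immune cells (1 of 4 genes). The part of these marker differences in the results was not tested. In bulk RNA, fewer cells of a type and less RNA per cell cannot be told apart.

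PMEPA1, ID1, ID3 and SKIL were the 4 genes with the higher level in shALKBH5 cells, and TGFBR2 had the largest difference in either direction. Their promoter sequences are shown because promoters of ID genes and of other targets of the pathway are known to carry sites for SMAD proteins. The stretches run from 250 to 65 bases before the RefSeq start site (GRCh38.p14), 186 bases each, written 5′ to 3′ on the strand of the gene. Capitals mark GGCGCC, a site of the BMP-responsive SMADs, and CAGAC or its reverse complement GTCTG, the shorter SMAD-binding element. The stretches are chr20:57711537-57711722 (minus strand) for PMEPA1, chr20:31605039-31605224 (plus strand) for ID1, chr1:23559566-23559751 (minus strand) for ID3, chr3:170357465-170357650 (plus strand) for SKIL and chr3:30606351-30606536 (plus strand) for TGFBR2.
PMEPA1: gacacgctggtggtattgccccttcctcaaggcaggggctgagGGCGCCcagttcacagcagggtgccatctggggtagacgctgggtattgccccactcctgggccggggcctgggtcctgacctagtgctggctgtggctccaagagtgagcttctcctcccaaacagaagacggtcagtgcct
ID1: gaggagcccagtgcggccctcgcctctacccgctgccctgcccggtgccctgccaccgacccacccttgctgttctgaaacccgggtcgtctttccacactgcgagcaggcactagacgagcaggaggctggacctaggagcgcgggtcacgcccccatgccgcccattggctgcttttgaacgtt
ID3: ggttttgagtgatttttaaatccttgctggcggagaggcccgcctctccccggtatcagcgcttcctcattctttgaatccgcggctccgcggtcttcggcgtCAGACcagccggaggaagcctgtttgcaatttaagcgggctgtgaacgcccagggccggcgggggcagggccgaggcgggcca
SKIL: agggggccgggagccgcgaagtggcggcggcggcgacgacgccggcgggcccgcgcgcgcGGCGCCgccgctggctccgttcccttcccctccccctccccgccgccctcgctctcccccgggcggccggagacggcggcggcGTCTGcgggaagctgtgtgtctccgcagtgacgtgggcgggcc
TGFBR2: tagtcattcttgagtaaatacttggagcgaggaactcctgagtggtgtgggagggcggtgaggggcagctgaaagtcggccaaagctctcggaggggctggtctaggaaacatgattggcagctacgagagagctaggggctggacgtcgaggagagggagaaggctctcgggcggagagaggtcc
Of the 9 genes, 7 had a stretch that could be searched, since the RefSeq start sites of SMAD3 and SMAD7 lie 1839 and 1087 bases inside the gene as the authors annotated it. Those of PMEPA1, SKIL, TGFBR1 and ID1 lie at most 64 bases inside it, and the stretches stop short of the annotated gene. GGCGCC was found in PMEPA1 and SKIL, and 11.8% of 35116 such stretches of all genes hold it on either strand. CAGAC was found in ID3 and SKIL, and 30.8% of all stretches hold it. The full palindrome GTCTAGAC was in none of the 7 and is in 0.14% of all stretches. The searched motifs do not overlap each other in these stretches, and a match is a description of letters only. The PMEPA1 stretch lies within the span of NKILA, a long noncoding RNA gene that starts inside PMEPA1 on the opposite strand and runs past its 5′ end.

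The inhibitor gene PMEPA1 and the targets ID1 and ID3 were higher in shALKBH5 cells, whereas both receptor genes and the transducer SMAD3 were lower. PMEPA1 was 3.77-fold and ID3 3.42-fold higher, and TGFBR2 was 5.45-fold lower. The other inhibitors differed less and not in 1 direction: SKIL was 1.45-fold higher, SMAD7 was 1.30-fold lower and the libraries of SMAD6 overlapped between the groups. In the fit over all genes, 4 of the 9 were called higher and 4 lower, beside 61.0% of all tested genes called in either direction (34.7% higher and 26.2% lower). These values chose the genes and nothing is read from the counts. The groups did not overlap in 8 of the 9 genes and in 67.0% of all tested genes. The median log2FC of the 9 was -0.18, set by SMAD6, against 0.09 over all tested genes, and their median absolute log2FC was 1.01 against 0.36. The sign of the former median depended on the filter, since it was 0.51 among genes whose mean reached 1 FPKM, and it was -0.0729 and -0.289 without shCtrl replicates 1 and 2.

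**Figure D1:**
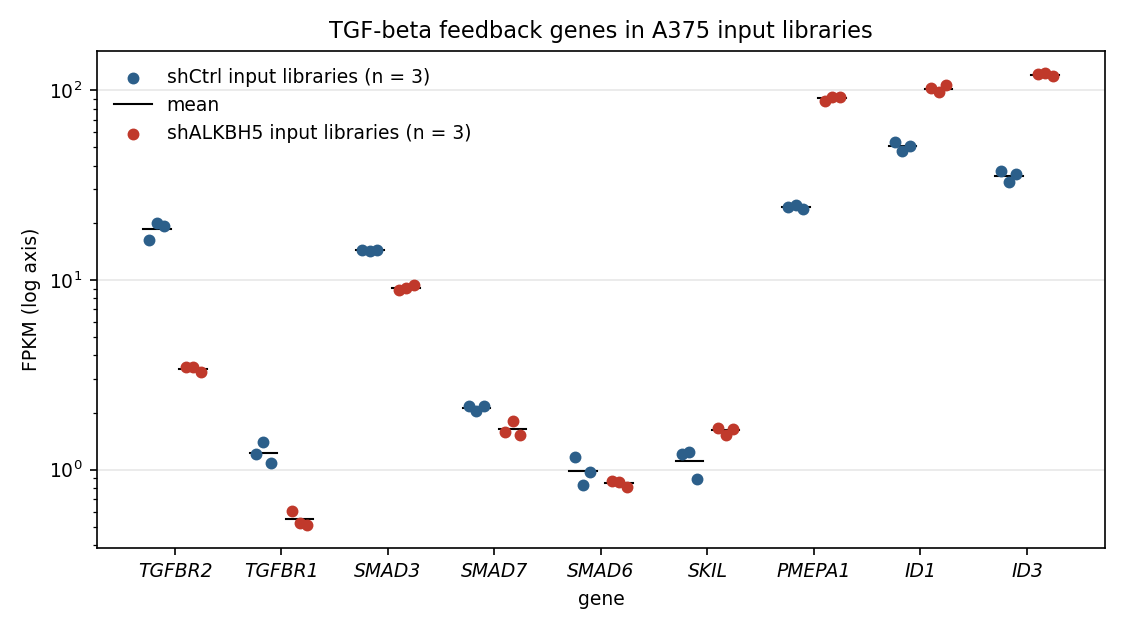
FPKM (log axis) of the 9 genes in the 3 shCtrl input libraries (blue) and the 3 shALKBH5 input libraries (red), with the mean of each group as a black line. PMEPA1, ID1 and ID3 sit higher in shALKBH5 cells, TGFBR2, TGFBR1 and SMAD3 sit lower, and only SMAD6 overlaps between the groups.

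The receptor genes are given first. TGFBR2 (ENSG00000163513, chr3:30606601-30694142, plus strand) was at 3.48, 3.46 and 3.25 FPKM in the shALKBH5 libraries and at 16.2, 20.0 and 19.3 FPKM in the shCtrl libraries. The groups were far apart, and the spread was wider among the controls. The group means, 3.40 ± 0.126 and 18.5 ± 2.02 FPKM (SD, n = 3 each), gave a log2FC of -2.41 (standard error, SE, 0.0851). Of the 12985 tested genes, 97 (0.747%) had a larger absolute log2FC. TGFBR1 (ENSG00000106799, chr9:99104038-99154192, plus strand) was at 0.608, 0.524 and 0.509 FPKM in shALKBH5 cells and at 1.22, 1.39 and 1.08 FPKM in shCtrl cells. Its groups did not overlap either, but the level was low in both. The means were 0.547 ± 0.0535 and 1.23 ± 0.158 FPKM (SD, n = 3 each), 2.25-fold lower in shALKBH5 cells, with a log2FC of -1.04 (SE 0.145). At this level the value depended on the pseudocount, and with a pseudocount of 1 FPKM instead of 0.1 the log2FC was -0.53. The difference of the type II receptor was the larger: the ratio of TGFBR2 to TGFBR1 within a library was 5.72 to 6.61 in shALKBH5 cells and 13.3 to 17.9 in shCtrl cells.

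SMAD3 (ENSG00000166949, chr15:67063763-67195169, plus strand), the transducer that the type I receptor phosphorylates, was at 8.84, 9.06 and 9.39 FPKM in shALKBH5 cells and at 14.4, 14.1 and 14.4 FPKM in shCtrl cells. The 2 sets of libraries were tight and well apart. The means were 9.10 ± 0.274 and 14.3 ± 0.169 FPKM (SD, n = 3 each), 1.58-fold lower in shALKBH5 cells (log2FC -0.65, SE 0.0452), and 25.6% of tested genes had a larger absolute difference. The inhibitory SMAD genes were at lower levels. SMAD7 (ENSG00000101665, chr18:48919853-48952052, minus strand) was at 1.58, 1.80 and 1.52 FPKM in shALKBH5 cells and at 2.17, 2.03 and 2.16 FPKM in shCtrl cells. All shALKBH5 libraries were below all controls, by a log2FC of -0.36 (SE 0.0937), near the middle of all tested genes, of which 50.1% had a larger absolute difference. SMAD6 (ENSG00000137834, chr15:66702236-66782849, plus strand), beside SMAD3 on the same chromosome, was at 0.876, 0.865 and 0.814 FPKM in shALKBH5 cells and at 1.16, 0.834 and 0.972 FPKM in shCtrl cells. A control library lay among the knockdown libraries, so the groups overlapped, and the log2FC was -0.18 (SE 0.144).

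Among the inhibitors that act elsewhere in the pathway, SKIL (ENSG00000136603, chr3:170357678-170396835, plus strand) was at 1.65, 1.53 and 1.65 FPKM in shALKBH5 cells and at 1.21, 1.23 and 0.890 FPKM in shCtrl cells. The groups were close but did not overlap. The log2FC was 0.51 (SE 0.138), and it was 0.31 with a pseudocount of 1 FPKM. PMEPA1 (ENSG00000124225, chr20:57648392-57711536, minus strand) was at 88.0, 92.1 and 92.3 FPKM in shALKBH5 cells and at 24.1, 24.7 and 23.5 FPKM in shCtrl cells. Every knockdown library was far above every control, and the libraries of a group differed little. The means were 90.8 ± 2.43 and 24.1 ± 0.570 FPKM (SD, n = 3 each), with a log2FC of 1.91 (SE 0.0389). A larger absolute log2FC was seen in 2.21% of tested genes. PMEPA1 was also well expressed in the controls, where 87.4% of tested genes had a lower mean.

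NKILA, the antisense gene at the 5′ end of PMEPA1 (chr20:57710156-57712780, plus strand), was examined after the values were seen because it shares sequence with PMEPA1. It was at 6.55, 6.63 and 7.54 FPKM in shALKBH5 cells and at 2.24, 2.43 and 2.42 FPKM in shCtrl cells, a log2FC of 1.51 (SE 0.0773). Both transcripts of this locus were thus higher in shALKBH5 cells, and NKILA was the less abundant in each library. Whether the authors counted reads by strand is not stated, so reads from the overlap of the 2 genes cannot be told apart. SMAD3 and SMAD6 also overlap noncoding genes in the annotation, whose mean levels were below 0.04 FPKM in both groups.

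ID1 and ID3 were the most abundant of the 9 genes. ID1 (ENSG00000125968, chr20:31605283-31606515, plus strand) was at 102, 97.8 and 106 FPKM in shALKBH5 cells and at 53.1, 48.0 and 50.8 FPKM in shCtrl cells. Each knockdown library was well above each control. The means were 102 ± 3.97 and 50.6 ± 2.59 FPKM (SD, n = 3 each), with a log2FC of 1.01 (SE 0.0502). ID3 (ENSG00000117318, chr1:23557926-23559501, minus strand) was at 122, 123 and 119 FPKM in shALKBH5 cells and at 37.3, 32.7 and 36.1 FPKM in shCtrl cells. Its difference was larger than that of ID1, with means of 121 ± 2.11 and 35.4 ± 2.40 FPKM (SD, n = 3 each) and a log2FC of 1.77 (SE 0.0536). The order of these paralogs changed with the group: the ratio of ID3 to ID1 within a library was 0.681 to 0.710 in shCtrl cells and 1.12 to 1.25 in shALKBH5 cells.

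FPKM is scaled by transcript length, so levels can be set beside each other between genes. In shCtrl cells the order from high to low was ID1, ID3, PMEPA1, TGFBR2, SMAD3, SMAD7, TGFBR1, SKIL and SMAD6, and the libraries of TGFBR1 overlapped those of SKIL, which overlapped those of SMAD6. In shALKBH5 cells it was ID3, ID1, PMEPA1, SMAD3, TGFBR2, SMAD7, SKIL, SMAD6 and TGFBR1, and only SMAD7 and SKIL overlapped among neighbours. The widest change lay between PMEPA1 and TGFBR2. In the control libraries PMEPA1 was at 1.22 to 1.49 times the level of TGFBR2, whereas in the knockdown libraries it was at 25.3 to 28.4 times that level.

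The genes with the pattern most like PMEPA1 over the 6 input libraries were named by the root mean square distance of centred log2 values, among 10888 genes whose mean reached 1 FPKM. They were TMEM106A (distance 0.028), ZNF385A (0.038), STK40 (0.045), GRAMD1B (0.053) and NUDT19 (0.055). With 2 groups of libraries, this likeness mostly reflects a similar fold: the log2FC values of the 5 genes were 1.94, 1.86, 1.94, 1.99 and 1.87. ID3 was ranked 26 (distance 0.104) and ID1 452 (0.455). SKIL was ranked 1958. TGFBR2 was ranked 10827, and SMAD6 and TGFBR1 were below 1 FPKM and not ranked.

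The other genes of the pathway were taken from 9 lists by role, which were chosen with earlier results of these data known. They moved in both directions: of 95 listed genes 93 were in the table and 70 could be tested, of which 20 rose, 21 fell and 29 did not pass, 58.6% called against 61.0% of all tested genes. Their median log2FC was 0.01. All values that follow are from limma with Benjamini-Hochberg adjustment over all tested genes.

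Upstream of the receptors, the ligands rose in 3 of 7 tested genes and fell in 2. INHBA, the activin A subunit, rose most (45.6 against 11.2 FPKM, log2FC 2.03, adjusted p = 7.08e-06), and BMP6 also rose (1.48, adjusted p = 2.28e-05). BMP4 was at 0.39 on the same scale, with an adjusted p of 0.0414 that missed the threshold in 8 of 13 alternative settings. TGFB1 itself, the ligand that TGFBR2 binds, fell from 44.5 to 34.2 FPKM (-0.38, adjusted p = 0.000787). Of 10 genes of latency and activation, 2 rose and 4 fell, and those that fell most were the integrin subunits ITGB5 (from 72.8 to 6.04 FPKM, -3.57, adjusted p = 9.72e-08) and ITGB8 (-2.53), which pair with the alpha-v subunit that helps release latent TGF-beta. ITGB3 (-0.997) and the activator THBS1 (-0.96) fell as well. Of 10 extracellular antagonists in the table, 4 could be tested and all 4 fell, beside 26.2% of all tested genes: BGN (-1.05), TWSG1 (-0.62), FSTL3 (-0.53) and FST (-0.23, lost in 4 of 13 settings). Among 8 other receptors, ACVR1 rose (0.35), ENG fell (-0.24), TGFBR3 fell from a level below 1 FPKM, and 5 did not pass. TGFBR3 had the largest absolute difference of that list (log2FC -0.97), beside -2.41 for TGFBR2.

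Beside SMAD3, of 4 other tested SMAD genes, SMAD4, the common partner, was called (0.30, adjusted p = 0.0455), a call lost in 8 of 13 settings. SMAD2 was at 0.771 against 0.908 FPKM (log2FC -0.21, adjusted p = 0.176). Of 12 other intracellular inhibitors 3 rose and 4 fell, and of the 3 the call of TRIM33 (log2FC 0.50, overlapping groups) was lost in 7 of 13 settings. The ubiquitin ligase genes WWP1 (-1.22) and SMURF2 (-0.53) fell and SMURF1 rose (0.42). The phosphatase gene PPM1A (-0.42) and SKI (-0.25, adjusted p = 0.00379), the relative of SKIL, fell. LDLRAD4, the closest relative of PMEPA1, was below the filter at 0.151 to 0.329 FPKM, beside 23.5 to 92.3 FPKM for PMEPA1. Among 7 genes that promote the signal inside the cell, ZFYVE9, which presents SMAD2 and SMAD3 to the receptors, fell (-1.59, adjusted p = 3.89e-05) and USP11 rose (0.36).

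Downstream, 8 of 13 tested genes of the TGF-beta target list rose and 3 fell (84.6% called, beside 61.0% of all tested genes), and no difference between lists was tested. Of the 8, BHLHE40 lost its call without shALKBH5 replicate 1 and without shALKBH5 replicate 3 (log2FC 0.36). IL11 rose from 5.92 to 20.1 FPKM (1.74, adjusted p = 4.43e-07). ACTA2 rose (0.74), whereas CCN2, a classical target, fell from 87.4 to 32.8 FPKM (-1.41, adjusted p = 5.93e-07). Of 5 further BMP targets, ID2, the paralog of ID1 and ID3, rose (0.92, adjusted p = 0.000671), ATOH8 fell (-1.99, adjusted p = 7.62e-06) and 3 did not pass. ID2 was far below its paralogs, at 1.63 FPKM in shALKBH5 and 0.817 FPKM in shCtrl cells.

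**Figure D2:**
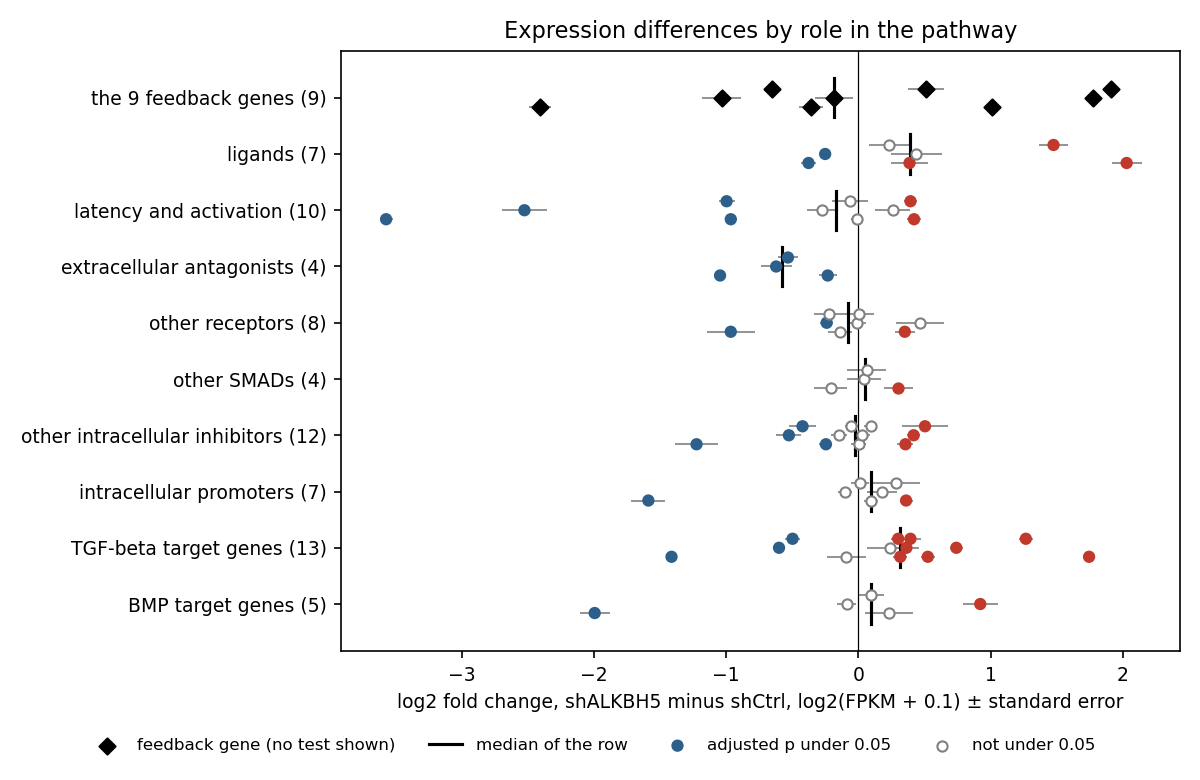
Log2FC of shALKBH5 minus shCtrl input libraries, on log2(FPKM + 0.1), with the standard error as a line, for the 9 feedback genes (black diamonds) and for the tested genes of 9 pathway lists, with the number of genes in brackets and the median of each row as a black bar. Filled circles have an adjusted p under 0.05, red when higher and blue when lower; the 4 extracellular antagonists all lie below 0, and the feedback genes reach from -2.41 to 1.91.

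In MeRIP-Seq a peak is a stretch where the precipitated RNA is enriched over the input, and its fold enrichment is a ratio that is meant to set the level of the transcript aside. The members carried m6A peaks in both groups, and most of them overlapped between the lists, as most peaks of all genes did. Each list held 27 peaks of the 9 genes, and 24 from the knockdown list and 23 from the control list overlapped a peak of the other, beside 78.1% and 81.3% of all peaks. The peaks lay in 8 of the 9 genes, while 86% (shALKBH5) and 85.5% (shCtrl) of all tested genes had a peak. By the authors' annotation, 13 shALKBH5 and 15 shCtrl member peaks lay in a 3′UTR, 10 and 9 in a 5′UTR, 1 and 1 in another exon, and 3 and 2 in an intron. In the full lists 45.5% and 46.2% of peaks were in a 3′UTR and 16.6% and 17% in a 5′UTR. The median fold enrichment of the member peaks was 5.28 and 5.11, beside 5.31 and 5.25 over all peaks. Since there is 1 list per group, no difference between the lists has a replicate check.

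**Figure D3:**
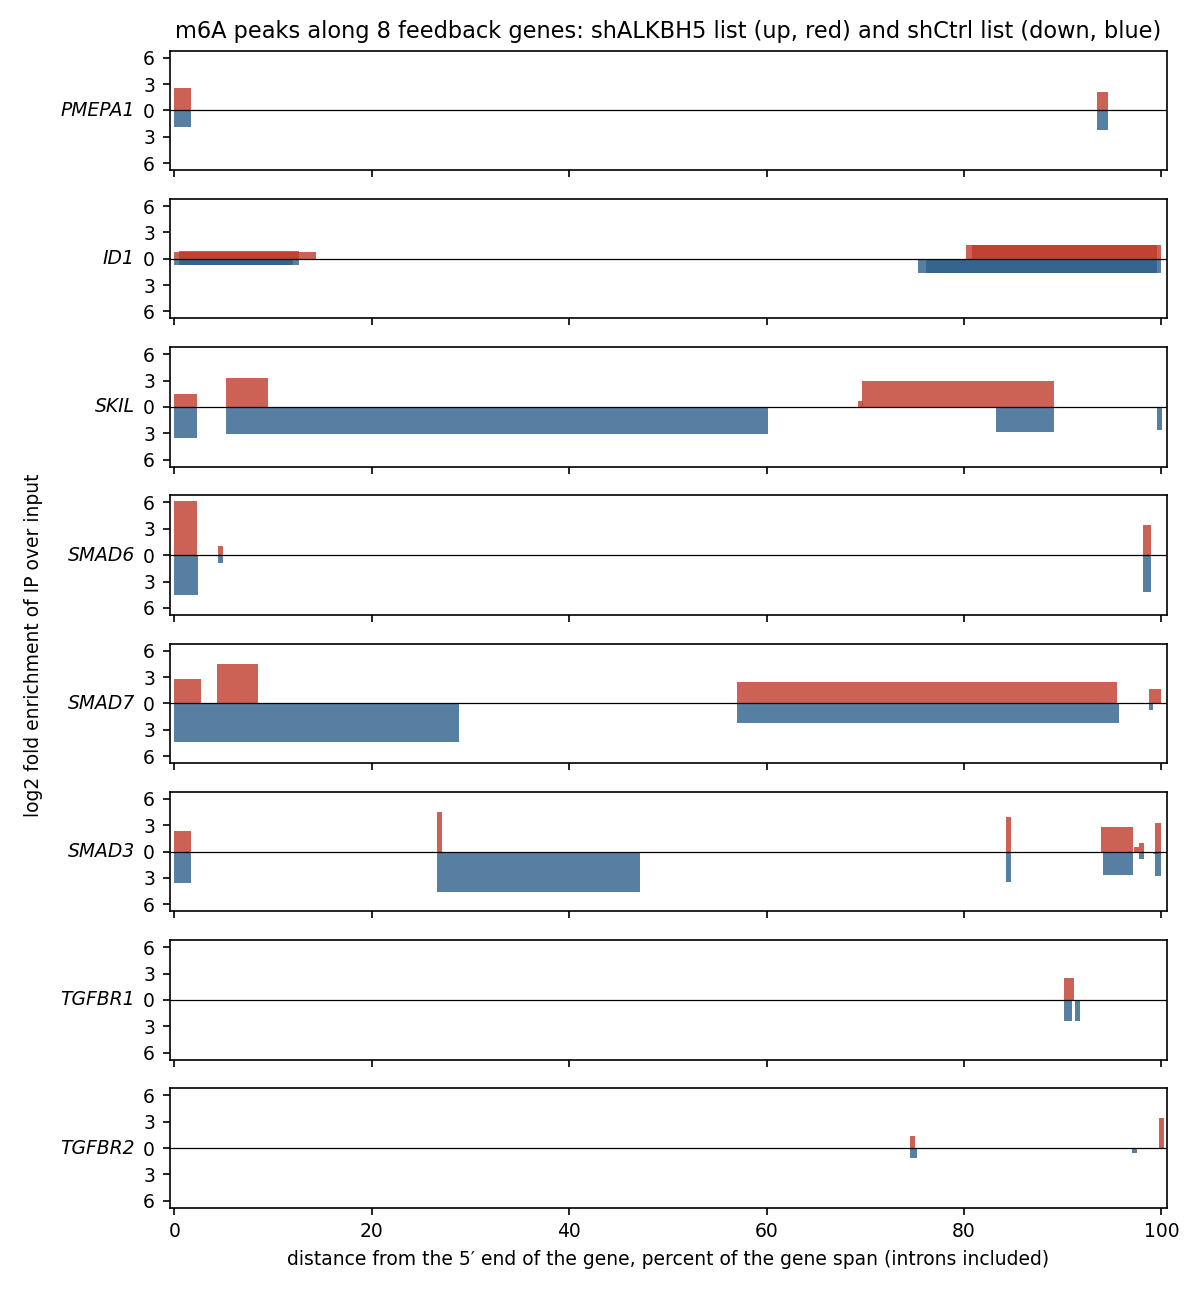
Peaks of 8 genes along the gene span from its 5′ end (percent of the span, introns included), with the log2 fold enrichment upward for the shALKBH5 list (red) and downward for the shCtrl list (blue). Peaks narrower than 0.5% of the span are drawn at that width and long bars include introns; ID3 had no peak, and most peaks have a counterpart in the other list.

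ID3 had no peak in either list, although it was the most abundant of the 9 genes in shALKBH5 cells. Such genes are not rare: of 1302 tested genes whose mean reached 30 FPKM, 182 (14%) had none in either list. Its paralog ID1 had 4 listed peaks per group, which overlap one another and form 2 regions, at the 5′ end and at the 3′ end of the gene. Their folds were low, 1.66 to 1.77 in the 5′UTR and 2.96 to 3.16 in the 3′UTR. The 5′ peaks of ID1 were thus below a fold of 2 in both lists.

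PMEPA1 had 2 peaks, with the same coordinates in both lists. The 3′UTR peak (chr20:57651795-57652481, 687 bases) begins 59055 bases from the 5′ end of the gene and stops 3403 bases short of its 3′ end, and its fold was 4.39 in shALKBH5 and 4.81 in shCtrl cells. The 5′UTR peak (chr20:57710474-57711536, 1063 bases) starts at the first base of the gene, and its fold was 5.76 against 3.73. The ratio of shALKBH5 to shCtrl folds was 0.913 for the 3′UTR peak and 1.54 for the 5′UTR peak. For comparison, the ratio over all 31293 paired peaks had a median of 0.966 and quartiles of 0.766 and 1.26. The 5′UTR ratio was therefore above the upper quartile, with 84.9% of pairs below it, and the 3′UTR ratio lay between the quartiles. The 5′ peak also overlaps listed peaks of the antisense gene NKILA, with folds of 5.18 and 12.7 in shALKBH5 cells and of 6.76 and 5.35 in shCtrl cells. The NKILA peak with a fold of 12.7 runs on to the end of that gene, where the shCtrl list has a separate peak with a fold of 11.9, so these folds are not over the same stretch. For the precipitated RNA, the study describes second-strand DNA made with dUTP. Whether reads were then assigned to peaks by strand is not stated, so the strand of the signal in the overlap cannot be told here.

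The most unequal folds among the paired peaks were at the 5′ ends of SKIL, SMAD6 and SMAD3, and they went in both directions. The SMAD6 5′UTR peak (chr15:66702236-66704061 in the shALKBH5 list) had a fold of 74.7 against 22.6, a ratio of 3.31 that was above that of 97.2% of pairs. Its 3′UTR peak went the other way, 11 against 17.9. SMAD6 had the lowest mean of the 9 genes in shCtrl cells, and the part of its low input level in these folds was not tested. The SKIL peak at the start of the gene (chr3:170357678-170358569) had a fold of 2.69 against 11.8, a ratio of 0.228 with 1.46% of pairs below it. The next SKIL peak, which begins 2048 bases into the gene, was at 9.75 against 8.62, and its 3′UTR peak at 7.72 against 7.34. Neither of these pairs covers the same stretch in both lists. The former spans 1677 bases in the shALKBH5 and 21521 in the shCtrl list, and the latter 7611 and 2318. Only the pair at the start of SKIL had the same coordinates, so the folds along the gene are not compared over like stretches. SKIL was at 1.11 FPKM in shCtrl cells, and the part of this low level in its folds was not tested.

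SMAD3 had 7 listed peaks in each group, the most of the 9 genes. The peak at its start (chr15:67063763-67065900 in the shALKBH5 list) had a fold of 5.17 against 12, a ratio of 0.431. Its other paired peaks had ratios from 0.905 to 1.46. Among them were a peak at the very 3′ end with folds of 9.83 and 6.86 and the long 3′UTR peak with 6.8 and 6.38. The ratio of 0.905 is not over like stretches, since that peak spans 211 bases in the shALKBH5 list and 27022 in the shCtrl list. The ratio of 1.46 is that of an intronic peak of 91 bases. SMAD7 had a 5′UTR peak with folds of 22.8 and 20.4 and a 3′UTR peak with 5.28 and 4.82. A further 3′UTR peak, at the end of the gene, was at 3.06 against 1.74, a ratio of 1.76 that was above that of 88.7% of pairs. This peak spans 420 bases in the shALKBH5 list and 91 in the shCtrl list, and it did not reach an FDR of 0.01 in the latter. The 5′UTR region was listed as 2 peaks in shALKBH5 cells, the other at a fold of 6.94 at the start of the gene, and as 1 peak of 9294 bases, introns included, in shCtrl cells.

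The receptor genes had few peaks. TGFBR1 had a 3′UTR peak (chr9:99149256-99149734 in the shALKBH5 list) with folds of 5.51 and 5.17, and shCtrl cells had a further peak beside it with a fold of 5.11 that was not in the shALKBH5 list and did not reach an FDR of 0.01. TGFBR2 had an exonic peak (chr3:30671864-30672133 in the shALKBH5 list) with folds of 2.61 and 2.19. Its 3′UTR peaks differed in place between the lists, at the last 180 bases of the gene with a fold of 11 in shALKBH5 cells and 2363 bases before the end with a fold of 1.47 in shCtrl cells. The former did not reach an FDR of 0.01. The gene with the largest difference in expression thus had 1 paired peak, at a low fold in both lists.

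Taking all 22 paired peaks of the members, 15 had the higher fold in shALKBH5 and 7 in shCtrl cells, while 45.7% of all pairs had the higher fold in shALKBH5 cells. Of the 22, 3 are ID1 pairs from 2 regions of overlapping peaks, and the pairs of a gene share its transcripts, so this split was not tested. The median ratio was 1.07, inside the quartiles of all pairs. The table in which the authors compared the peaks of the groups held 8 entries for 6 of the 9 genes: 2 each for ID1 and PMEPA1 and 1 each for SKIL, SMAD3, SMAD6 and SMAD7. Of all tested genes, 32.7% had an entry, and both receptor genes and ID3 had none. Only the positions of that table were used. Sequences inside the peaks were not analysed here.

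**Figure D4:**
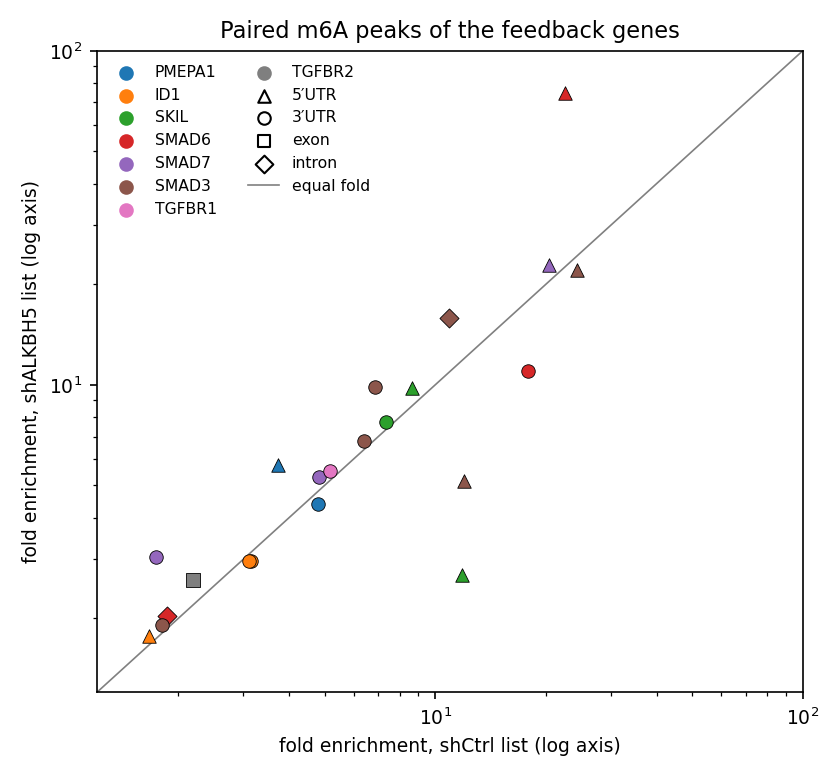
Fold enrichment of the 22 paired peaks in the shCtrl list (horizontal, log axis) and the shALKBH5 list (vertical, log axis), coloured by gene and shaped by annotation, with a line of equal fold. Most points lie near the line; the SMAD6 5′UTR peak (74.7 against 22.6) lies above it, and the first 5′UTR peaks of SKIL (2.69 against 11.8) and SMAD3 (5.17 against 12) lie below it.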

How the data were processed

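The authors deposited expression of the input libraries as FPKM per gene, 1 peak list per group with the fold enrichment, a ratio of IP over input, and scores (log10 p and FDR), and a table of differential peaks. For its RNA-Seq the study names an R package for quantifying and testing transcript levels, not how FPKM was made. The aligner, the read counter and the peak caller are not given in the sources used here. The submitters' processing notes name the build mm10, but 99.9% of 21699 genes matched by symbol overlap their GRCh38.p14 position, and coordinates are given as in the files, with 1 added to peak starts. The authors' fold changes and p-values between groups were not used.

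Expression was fitted with limma 3.58.1 (trend, two-sided, Benjamini-Hochberg, threshold 0.05) in R 4.3.3 on log2(FPKM + 0.1), keeping genes whose mean reached 0.5 FPKM. The fit was first run on simulated data. These had independent noise and far fewer changed genes than were called here, so that run does not measure the errors of the fit in these data. Fold changes on this scale understate low genes. With 3 libraries a group the precision is limited, and an exact two-sided permutation test could not go below 0.1. Peaks of the same gene and strand were paired by the largest overlap of at least 1 base (bedtools 2.31.1, Python 3.11.15, pandas 2.3.3). Alternatives were other pseudocounts, filters, scaling, no trend, a replicate block, each library left out, stricter peaks and a reciprocal overlap of 50%. Merging overlapping peaks was added after seeing the data.

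The members, lists and tests were chosen with earlier results of these data known. The text names the members, ALKBH5, TGFB1, SMAD2, SMAD4, SKI, LDLRAD4, the 5 genes most like PMEPA1, and per list the 4 largest called changes with separate groups and 1 FPKM or more. TGFBR3, TRIM33, BHLHE40 and NKILA were chosen after their values were seen. Another gene that this rule names is not reported here.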

Additional observations from a re-analysis of the deposited data

How the results depend on the processing

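None of the 9 log2 fold changes changed sign in the alternatives run, which is a description, since the genes were chosen on these values. With a mean of 1 FPKM as the filter, SMAD6 and TGFBR1 dropped out. The median log2 fold change of the 9 genes (-0.18) is the value of SMAD6 and was -0.10 with a pseudocount of 1 FPKM, -0.25 after rescaling each library by its median ratio, and 0.51 with the filter at 1 FPKM, where fewer genes enter. Leaving out each library gave medians from -0.289 to -0.0729, the ends coming from leaving out shCtrl replicates 2 and 1. The log2 fold change of PMEPA1 stayed between 1.83 and 1.93, that of ID3 between 1.69 and 1.81 and that of TGFBR2 between -2.50 and -2.14. Genes called numbered 7917 and ranged from 6871 to 8231, and after rescaling 3765 were higher and 3921 lower, beside 4509 and 3408. Pathway genes called numbered 41 and ranged from 36 to 44.

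The replicate numbers were not used as pairs. Deviations of same-numbered libraries correlated at 0.0181, -0.0462 and 0.0591. These values show no shared deviation and do not tell whether the libraries were prepared in pairs. With the number as a block, 7271 genes and 38 pathway genes were called and the median of the 9 genes was -0.18.

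Stricter peaks (a fold of at least 2, FDR of at most 0.01) left 39 of 54 member peaks, and merging overlapping peaks left 50. Of 47 peaks that overlapped the other list, 34 did so at a reciprocal overlap of 50% and 37 among the stricter peaks. The depth is unknown, and peaks have no values per library here.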

Other observations

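The genes of the pathway lists, which the report describes by expression, were also examined for m6A peaks. Of the 70 tested, 62 had a peak in both lists, beside 82.6% of all tested genes. A peak in the shALKBH5 list only was found for 1 gene, beside 3.34% of all tested genes, and in the shCtrl list only for 3 genes, beside 2.89%. The 3 genes were FST, TWSG1 and BGN, named after their values were seen, and their largest folds in the shCtrl list were 4.15, 7.66 and 1.33. All 3 were also called lower in expression in shALKBH5 cells, and the part of their expression in the listing of peaks was not tested. No peak was listed for 4 genes. Peaks have no replicate check, and no difference between the lists was tested.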
